A study of Homo sapiens with 12 samples.

Results

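U2OS osteosarcoma cells treated for 24 h with TH10785 at 10 µM were compared directly with U2OS cells treated for 24 h with PNKP1i at 10 µM. The comparison uses 6 of the 12 RNA-seq libraries of the study, the 3 labelled TH10785 and the 3 labelled PNKP1i, and they were chosen by those labels alone. TH10785 is a small molecule described as activating OGG1, a DNA glycosylase that cuts oxidised guanine out of DNA. PNKP1i is given by that name alone in the labels, with no structure. The remaining libraries are 3 from cells given DMSO and 3 from cells given both compounds at 10 µM each. The DMSO libraries are used below only to show where untreated levels lie, and the libraries with both compounds are not used. No genetic change distinguishes the groups, since every library comes from the same line. U2OS is an established human osteosarcoma line, so the data describe 1 transformed cell background. The labels name the compound TH10785 and the series record writes TH10587, and the labels' spelling is kept here. Whether the 3 libraries of a group are separate cultures is not stated in the labels, and p-values therefore reflect only the spread between these libraries, which may be technical.

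Among the genes that separate the compounds are members of a few well-known programmes. When membrane cholesterol is low, the SREBP proteins leave the endoplasmic reticulum, are cut in the Golgi and enter the nucleus, where they turn on cholesterol and fatty acid synthesis. SREBP commonly acts together with the CCAAT-binding factor NF-Y. INSIG1 holds SREBP back and is itself an SREBP target, so its mRNA is a usual readout of the pathway. NRF2 is held by KEAP1 until electrophiles or oxidants free it, and it then turns on genes for quinone reduction, glutathione synthesis and iron storage. ATF4 is translated when the integrated stress response is active and turns on amino acid synthesis and transport.

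Levels are given as CPM, a library's counts scaled to a common total, after scaling of the libraries by the TMM method. Differences are given as log2 of TH10785 over PNKP1i, so a positive value means a higher level with TH10785. A gene is called when its p from edgeR's quasi-likelihood test, adjusted by Benjamini-Hochberg over all 16244 genes tested, is under 0.05, and every adjusted p below is of this kind unless another fit is named.

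The 6 libraries held between 16225339 and 21546369 counts. Of 12 genes that mark mesenchymal and osteosarcoma cells, 10 were expressed enough to be tested, COL1A2 was under 1 CPM and TWIST1 was at 0. The summed level of all 12 was 3622 to 4075 CPM with TH10785 and 3787 to 3894 CPM with PNKP1i. None of 10 blood markers was expressed enough to be tested, with a summed level of at most 0.934 CPM in any of the 6 libraries. Of 10 epithelial markers 5 were tested, none had an unadjusted p under 0.05, and KRT19, ESRP1, GRHL2, ELF3 and RAB25 were under 1 CPM. The sum of all 10 epithelial markers was 49.1 to 62.4 CPM with TH10785 and 58.75 to 61.35 CPM with PNKP1i. Of 8 endothelial and neural markers 7 were tested and none was called by edgeR, DESeq2 or limma-voom, with a sum of 26.2 to 32.4 CPM against 27.7 to 29.2 CPM. In this list CDH5 and PECAM1, near 1 CPM, were higher with TH10785 at an unadjusted p under 0.05 (1.04 and 0.75, adjusted p = 0.406 and 0.507). The list's median against DMSO was 0.491, 0.654 and 0.946 in the TH10785 libraries and 0.046, 0.468 and 0.199 in the PNKP1i libraries, and its part in the results was not tested. TH10785 replicate 3 stood apart from its 2 partners. Principal component 1 (41.4% of the variance) placed it at −47.6 and placed its partners at 30.9 and 20.2. Component 2, with 25.3%, separated the compounds, with the TH10785 libraries between −20.3 and −18.9 and the PNKP1i libraries between 16.3 and 24.5. In TH10785 replicate 3 the 2232 genes with under 40% GC were shifted by −0.468 on the log2 scale against the mean of the 6 libraries, while in its partners they were shifted by 0.359 and 0.258. In PNKP1i replicates 1, 2 and 3 the shift was −0.116, 0.074 and −0.058. Leaving out TH10785 replicate 3 therefore leaves TH10785 libraries that all lie above the PNKP1i libraries in this shift. The part of this GC shift in each gene's result was not tested, so results are given with and without TH10785 replicate 3 where it matters.

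The direct comparison called 109 genes, 0.671% of those tested. Of these, 89 (0.548%) were higher with TH10785 and 20 (0.123%) were higher with PNKP1i. The difference was at least 2-fold in 57 of the 89 and in 10 of the 20. At an unadjusted p under 0.05 there were 1390 genes (8.56%) and the balance was closer, with 742 genes (4.57%) higher with TH10785 and 648 (3.99%) higher with PNKP1i. The 3 libraries of one compound lay wholly above those of the other in 1160 genes (7.14%) for TH10785 and in 1220 genes (7.51%) for PNKP1i. The number of calls depended on single libraries. Without TH10785 replicate 3, 3089 genes were called, 1774 (10.6%) higher with TH10785 and 1315 (7.88%) higher with PNKP1i, and these included all 109. The list counts given below for that fit stand beside these shares. Without TH10785 replicate 2 there were 34 calls, and without PNKP1i replicate 1, 2 or 3 there were 26, 26 and 25. Without TH10785 replicate 1 there were 87, of which 10 were higher with PNKP1i. With offsets for GC content and length in all 6 libraries, 441 genes (2.71%) were called, 295 (1.82%) higher with TH10785 and 146 (0.899%) higher with PNKP1i. That fit puts 66.9% of the calls on the TH10785 side, against 81.7% without the offsets. The same offsets without TH10785 replicate 3 gave 1295 calls (7.76%), 638 (3.82%) and 657 (3.94%) by direction. On all 6 libraries DESeq2 called 239 genes (1.5%) and limma-voom 91 (0.56%). In all 22 fits that were run, 22 genes were called in the same direction, 21 of them higher with TH10785 and 1, AKR1C1, higher with PNKP1i.

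**Figure D1:**
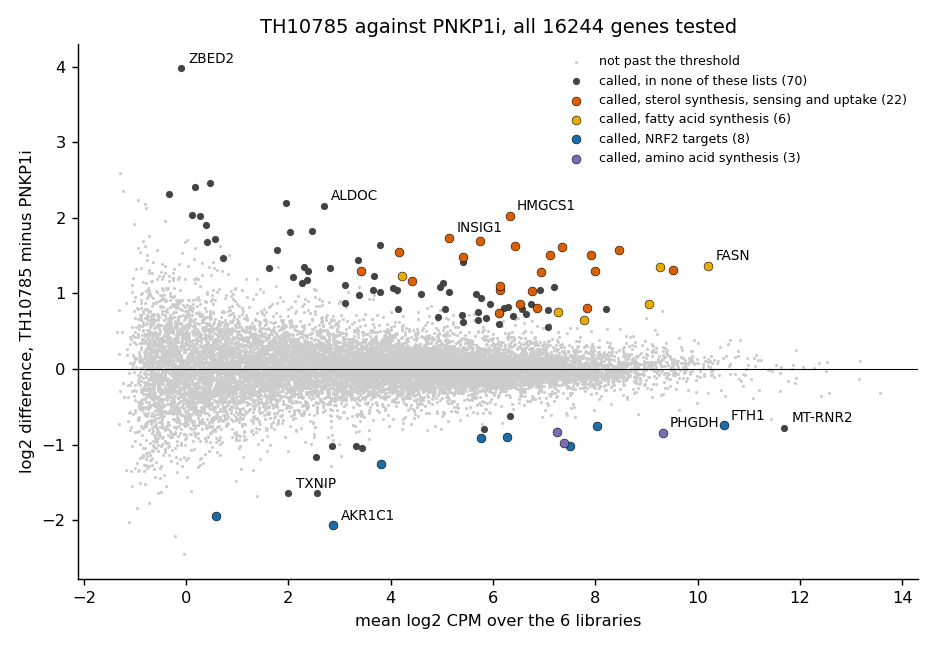
Mean log2 CPM over the 6 libraries (x axis) against the log2 difference of TH10785 minus PNKP1i (y axis) for each of the 16244 genes tested; grey points are not called and coloured points are the 109 called genes, by list. Called sterol and fatty acid genes lie together above 0, and called NRF2 and amino acid genes lie together below 0. Members of these lists that were not called are among the grey points.

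Enzymes of cholesterol synthesis were higher with TH10785. Of 22 enzymes of the pathway, all tested, 16 were called higher with TH10785 and none with PNKP1i, and the median difference over the 22 was 1.296 on the log2 scale against 0.007 over all genes. Among the 16 were ACAT2 and HMGCS1, which act before mevalonate, MVK and MVD, which turn mevalonate into the isoprene unit, FDPS, FDFT1, SQLE and LSS, which assemble squalene and close it to lanosterol, and CYP51A1, MSMO1, NSDHL, HSD17B7, EBP and DHCR7, which act between lanosterol and cholesterol. In each of the 16 the 3 TH10785 libraries lay above the 3 PNKP1i libraries. The count was 19 without TH10785 replicate 3 and 18 with GC and length offsets. It was 11, 10 and 12 without PNKP1i replicate 1, 2 or 3, and none of these fits called a member higher with PNKP1i.

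The promoters of the 4 called sterol genes below, all higher with TH10785, are shown because most members share 1 short motif. They were picked for the smallest p among called sterol genes whose promoter holds that motif. They are INSIG1 (chr7:155297628-155297877, plus strand), HMGCS1 (chr5:43313413-43313662, minus strand), FDPS (chr1:155308616-155308865, plus strand) and HSD17B7 (chr1:162790452-162790701, plus strand). Each line gives the 250 bases before the start of the gene in RefSeq (build GRCh38.p14), 5′ to 3′ on the gene's strand, with the NF-Y letters CCAAT, or ATTGG where they lie on the other strand, in capitals.
INSIG1: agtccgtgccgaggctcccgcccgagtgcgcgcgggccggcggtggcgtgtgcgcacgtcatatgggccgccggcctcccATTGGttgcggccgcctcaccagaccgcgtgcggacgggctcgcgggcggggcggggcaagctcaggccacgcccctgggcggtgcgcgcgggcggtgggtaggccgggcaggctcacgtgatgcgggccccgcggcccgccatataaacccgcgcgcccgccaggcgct
HMGCS1: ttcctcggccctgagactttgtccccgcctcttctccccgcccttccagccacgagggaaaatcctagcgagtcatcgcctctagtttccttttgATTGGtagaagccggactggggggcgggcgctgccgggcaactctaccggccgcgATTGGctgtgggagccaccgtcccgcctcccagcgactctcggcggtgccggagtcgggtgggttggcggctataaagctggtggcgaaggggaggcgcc
FDPS: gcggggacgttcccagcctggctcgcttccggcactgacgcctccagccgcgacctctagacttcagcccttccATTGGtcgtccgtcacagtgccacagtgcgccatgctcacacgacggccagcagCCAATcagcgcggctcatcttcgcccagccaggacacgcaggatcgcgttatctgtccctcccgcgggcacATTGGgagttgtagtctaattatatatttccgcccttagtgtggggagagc
HSD17B7: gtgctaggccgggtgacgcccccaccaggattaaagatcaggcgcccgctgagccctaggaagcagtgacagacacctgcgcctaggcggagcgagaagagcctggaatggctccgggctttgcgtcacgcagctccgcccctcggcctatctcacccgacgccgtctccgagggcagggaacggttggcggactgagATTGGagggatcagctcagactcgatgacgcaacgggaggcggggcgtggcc
The printed stretch holds 3 copies for FDPS, 2 for HMGCS1 and 1 each for INSIG1 and HSD17B7.

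RefSeq windows of 300 bases, 250 before and 50 after the start, were at hand for 11 of the 16 called sterol enzymes, and ACAT2, FDFT1 and SQLE were among those with none. CCAAT on either strand was present in 10 of the 11 (90.9%), CYP51A1 being the exception, against 34.6% of all 35116 windows. It was present in 37 of the 65 windows of genes higher with TH10785 (56.9%) and in 9 of the 15 of genes higher with PNKP1i (60%). By list, 3 of 5 windows of called sterol sensing genes and 1 of 4 of called fatty acid genes held it. So did 4 of 6 windows of called NRF2 targets and 11 of 16 of the whole amino acid synthesis list (68.8%). The letters TCACNCCAC, a form of the sterol regulatory element searched on both strands, were found in 0 of the 11 and in 1.13% of all windows. Among genes called higher with TH10785, 1 of 65 windows held them, that of ALDOC, which was chosen for display after its values were seen. It encodes aldolase C, a glycolytic enzyme of brain and other tissues, and its promoter (chr17:28576896-28577145, minus strand) is shown with those letters in capitals.
ALDOC: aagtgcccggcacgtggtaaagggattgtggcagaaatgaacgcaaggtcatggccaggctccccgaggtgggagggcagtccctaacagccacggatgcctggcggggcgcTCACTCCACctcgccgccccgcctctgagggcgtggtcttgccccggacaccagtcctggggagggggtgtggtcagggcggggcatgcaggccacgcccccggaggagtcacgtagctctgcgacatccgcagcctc
A match is a run of letters and was not tested as a binding site. Letters for NRF2 and ATF4 sites were searched in the same way. TGACNNNGC, for NRF2, was in 0 of 6 windows of called NRF2 targets, 4 of 25 of that whole list and 13.3% of all windows. TGATGNAA, for ATF4, was in 0 of 3 windows of called amino acid synthesis genes, 4 of 16 of that whole list and 3.62% of all windows.

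HMGCS1 encodes HMG-CoA synthase and lies on chromosome 5 from 43289395 to 43313512 (ENSG00000112972, GENCODE 29 on GRCh38). Its level was 186, 185 and 120.0 CPM in TH10785 replicates 1, 2 and 3, 41.0, 40.03 and 39.2 CPM with PNKP1i, and 57.4, 45.8 and 47.5 CPM with DMSO. PNKP1i was the lowest of the 3 groups and no group overlapped another. The difference between the compounds was 2.03 (95% interval 1.66 to 2.40), a fold of 4.08, with an adjusted p of 0.0007. Within the TH10785 group replicate 3 was the low library for this gene, and without it the difference was 2.21.

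For most of the pathway the PNKP1i libraries overlapped DMSO and the TH10785 libraries stood above both. ACAT2, which makes acetoacetyl-CoA, was at 143, 150.3 and 160.4 CPM with TH10785, 48.2, 50.1 and 48.7 CPM with PNKP1i, and 61.3, 52.6 and 39.0 CPM with DMSO. Its difference of 1.63 (1.39 to 1.86) had an adjusted p of 0.00018, shared as the smallest of all genes with INSIG1. MVD, mevalonate diphosphate decarboxylase, was at 242, 265 and 362 CPM against 101.1, 81.9 and 101.2 CPM, a difference of 1.61. Here TH10785 replicate 3 was the high library, and without it the difference was 1.42.

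FDFT1, squalene synthase, commits farnesyl diphosphate to sterols. It was at 546, 577 and 703 CPM with TH10785 and 210.3, 190.5 and 214 CPM with PNKP1i, a difference of 1.57 (adjusted p = 0.0007). The PNKP1i libraries overlapped the DMSO libraries, which held 201, 202 and 162 CPM. SQLE, squalene epoxidase, oxidises squalene before it is closed to lanosterol. It stood at 242, 261 and 204 CPM with TH10785 against 90.7, 79.0 and 78.3 CPM with PNKP1i, a difference of 1.51 (adjusted p = 0.0007). Both genes were called in all 22 fits.

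Enzymes after lanosterol were higher with TH10785 as well. MSMO1, the methylsterol oxidase, was at 103, 113 and 76.8 CPM with TH10785 and 31.1, 33.8 and 25.7 CPM with PNKP1i, a difference of 1.70. HSD17B7, the 3-ketosteroid reductase, was at 30.4, 29.8 and 31.2 CPM against 9.29, 11 and 10.9 CPM, a difference of 1.55. DHCR7, which makes cholesterol from 7-dehydrocholesterol, was at 350, 377 and 509 CPM against 169, 124 and 143 CPM, a difference of 1.505. The groups did not overlap in any of the 3 genes, and DMSO overlapped PNKP1i in each. ERG28, an endoplasmic reticulum protein that scaffolds these enzymes and is in none of the lists, was called at 1.05 (adjusted p = 0.00285), with 157, 168 and 199 CPM against 85.4, 82.8 and 85.3 CPM.

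A few enzymes of the pathway were not called. IDI1, which isomerises the isoprene unit, was at 19.7, 16.6 and 9.99 CPM with TH10785 and 7.94, 7.81 and 6.05 CPM with PNKP1i (1.09, adjusted p = 0.108). SC5D, a late desaturase, was at 23.2, 20.5 and 11.3 CPM against 7.94, 10.8 and 9.14 CPM (0.98, adjusted p = 0.178). In both, the replicate 3 library was the low one of the TH10785 group and still lay above all PNKP1i libraries. Both were called without it, at 1.32 and 1.24, and both were called with GC and length offsets. PMVK, GGPS1, LBR and TM7SF2 had unadjusted p over 0.05, and TM7SF2 was the member with the most negative difference, −0.25.

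TH10785 replicate 3 did not lie to the same side of its partners in all lipid genes. In the 28 called genes of sterol synthesis, sterol sensing and fatty acid synthesis, it lay below both partners in 9, above both in 18 and between them in 1, INSIG1. The 9 genes in which it was low had a median transcript GC of 41.5% (34.2 to 50.1%), and the 18 in which it was high had a median of 54.55% (41.7 to 65.3%). All 28 were called with the same direction when it was left out.

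**Figure D2:**
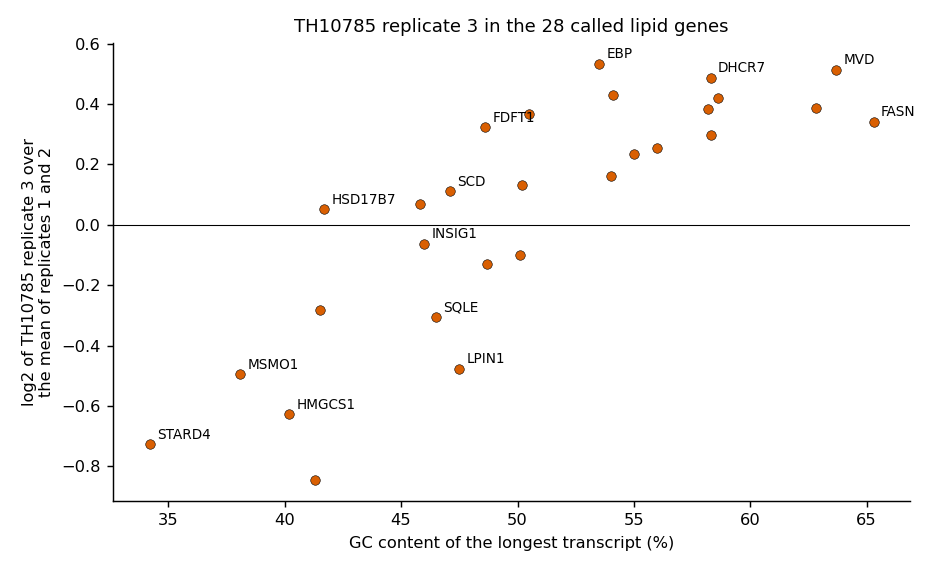
GC content of the longest annotated transcript in percent (x axis) against the log2 ratio of TH10785 replicate 3 over the mean of replicates 1 and 2 (y axis), 1 point for each of the 28 called lipid genes. The 9 genes in which replicate 3 lay below both partners sit at 34.2 to 50.1% GC, and MVD, FASN and other GC-rich genes lie above 0.

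Part of the control layer of the pathway was also higher with TH10785. Of 20 genes for sterol sensing and uptake, 18 were tested and 6 were called, all higher with TH10785, INSIG1, STARD4, TMEM97, SREBF1 and LPIN1 among them. The list's median was 0.289. NPC1L1 was among the genes expressed too little to be tested. The count was 11 without TH10785 replicate 3, 7 with GC and length offsets, 4 without TH10785 replicate 1, and 1 without TH10785 replicate 2 or without any single PNKP1i library, INSIG1 being called in every one of them.

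INSIG1 (ENSG00000186480) lies on chromosome 7 from 155297776 to 155310235. It was at 60.6, 70.4 and 62.7 CPM with TH10785, 19.4, 18.5 and 20.3 CPM with PNKP1i, and 22.02, 17.7 and 19.9 CPM with DMSO. PNKP1i overlapped DMSO, and all 3 TH10785 libraries lay above both. The difference was 1.74 (SE 0.12, interval 1.47 to 2.001), a fold of 3.33.

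SREBF1, which encodes SREBP1, differed less. It was at 266, 282 and 358 CPM with TH10785 and 179, 158 and 183 CPM with PNKP1i, a difference of 0.80 (adjusted p = 0.0306). For SREBF1 the DMSO libraries, at 189.9, 222 and 211 CPM, lay between the compounds. SREBF2, which encodes the paralogue that favours cholesterol genes, was at 580, 605 and 767 CPM against 446, 356 and 416 CPM and missed the threshold (0.68, adjusted p = 0.0783). STARD4, a carrier of cholesterol between membranes, was called at 1.16, and LPIN1, a phosphatidate phosphatase that also feeds back on SREBP, at 0.74. TMEM97, the sigma-2 receptor that binds NPC1, was called at 0.86. The highest adjusted p for SREBF1 when any 1 library was left out was 0.229, without PNKP1i replicate 2.

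Fatty acid synthesis followed to a smaller extent. Of 25 genes tested of 26, 6 were called higher with TH10785 and none with PNKP1i, with a list median of 0.298. The called genes were FASN, SCD, PNPLA3, ACACA, FADS1 and FADS2. FASN, which builds palmitate, was at 1664, 1849 and 2225 CPM with TH10785, 830.3, 626 and 770.0 CPM with PNKP1i, and 686, 799 and 901 CPM with DMSO. The TH10785 libraries were all higher than any other, and PNKP1i overlapped DMSO. The difference was 1.37 (1.02 to 1.71, adjusted p = 0.00285). SCD, which adds the first double bond, was at 947, 973 and 1036 CPM against 423, 350.4 and 384 CPM, a difference of 1.35 (adjusted p = 0.00075).

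ACACA, which makes malonyl-CoA, was called at 0.76. The desaturases of polyunsaturated fatty acids FADS1 and FADS2 were called at 0.65 and 0.85. Their annotated spans overlap on opposite strands. Since strand use in counting is not stated, reads from shared stretches may not be told apart. PNPLA3, a lipase of lipid droplets, was at 26.8, 27.7 and 30.4 CPM with TH10785 and 13.4, 11.1 and 11.6 CPM with PNKP1i, a difference of 1.23. ACSS2, which makes acetyl-CoA from acetate, was at 54.1, 61.1 and 77.5 CPM against 37.1, 39.0 and 40 CPM and lay just outside the threshold (0.73, adjusted p = 0.0506). ACLY, which makes acetyl-CoA from citrate, was also not called (0.52, adjusted p = 0.122). Without TH10785 replicate 3 the list had 13 calls higher with TH10785 and 2 higher with PNKP1i. It had 10 and none with GC and length offsets. Without TH10785 replicate 2 there were 3 calls, and without PNKP1i replicate 1, 2 or 3 there were 3, 3 and 2.

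**Figure D3:**
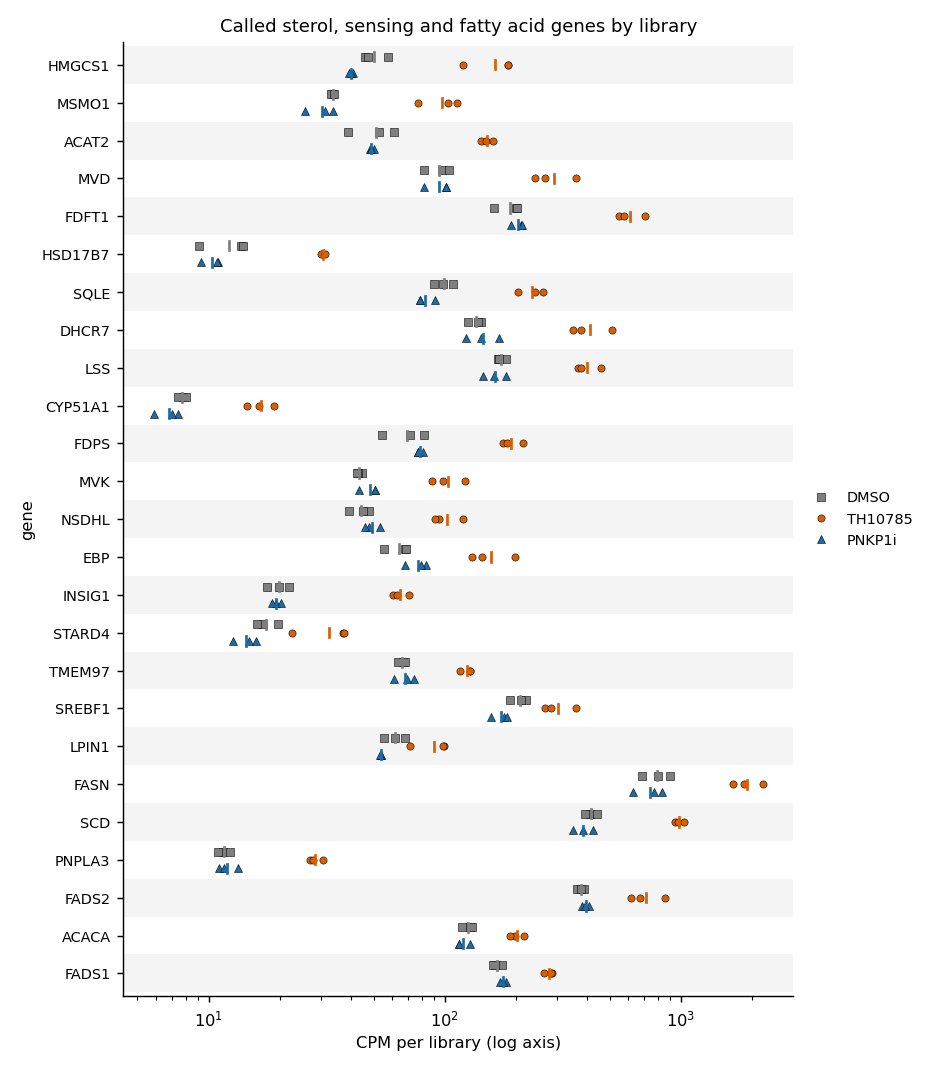
CPM in each library (log x axis) of 25 of the 28 called genes of sterol synthesis, sterol sensing and uptake, and fatty acid synthesis, with DMSO as grey squares, TH10785 as orange circles and PNKP1i as blue triangles, and short bars at the group means. The TH10785 libraries lie to the right of the PNKP1i libraries in every gene drawn, and for most of them the PNKP1i libraries overlap DMSO.

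The list of LXR targets and sterol export genes, which cells turn on when sterols are plentiful, had no called member among 14 tested by edgeR. It had 3 members with an unadjusted p under 0.05, 1 call by DESeq2 and none by limma-voom. With GC and length offsets edgeR called 2 higher with TH10785, and without TH10785 replicate 3 it called 3 higher with TH10785 and 1 with PNKP1i. ABCG1, a sterol exporter, was at 11.8, 11.6 and 12.5 CPM with TH10785, 4.99, 8.89 and 6.002 CPM with PNKP1i, and 15.9, 17.7 and 16.9 CPM with DMSO (0.85, adjusted p = 0.179). Both compounds lay below DMSO for this gene.

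Genes outside the lipid lists made up 61 of the 89 calls on the TH10785 side. ALDOC had the second largest difference among genes named by size, 2.16 (1.62 to 2.70), with 11.4, 12.7 and 17.01 CPM with TH10785 and 3.01, 2.31 and 3.85 CPM with PNKP1i. LINC02615, a long noncoding RNA, had the largest at 2.19, with 9.69, 9.47 and 5.42 CPM against 1.88, 1.70 and 1.78 CPM. ALPL, the tissue-nonspecific alkaline phosphatase of bone, was at 9.63, 8.73 and 12.5 CPM with TH10785, 3.11, 2.62 and 2.95 CPM with PNKP1i and 2.55, 3.17 and 2.85 CPM with DMSO. Its difference was 1.83 (adjusted p = 0.00307). KISS1, which encodes the peptide kisspeptin, was at 20.4, 24.9 and 27.8 CPM against 7.51, 7.55 and 8.39 CPM, a difference of 1.64. ALDOC, ALPL and KISS1 were called in all 22 fits, and LINC02615 in 19.

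Several further genes on this side are described here, of which MMP9 is in the list of integrins, laminins and matrix proteases and the others are in no list. They were picked for description after their values were seen. PCYT2, an enzyme of phosphatidylethanolamine synthesis, was called at 0.85, and DBI, which binds acyl-CoA, at 0.72. IDH1, a source of cytosolic NADPH, was called at 0.70, with 119, 114 and 87.4 CPM against 66.5, 68.4 and 61.8 CPM. MMP9, a collagenase of type IV collagen, was at 23.7, 22.4 and 26.1 CPM with TH10785 and 10.1, 14.6 and 9.57 CPM with PNKP1i (1.08). TGM2, a transglutaminase that cross-links proteins, was called at 0.79, and FGF1, a growth factor, at 1.02. SNAI3 and the antisense gene SNAI3-AS1 were both called, at 1.13 and 1.34, and their annotated spans overlap. The sources used here do not state strand use in counting, so reads from the overlap may not be told apart.

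The DMSO libraries place each called gene. Of the 89 genes higher with TH10785, the DMSO range overlapped only that of PNKP1i in 58, overlapped only that of TH10785 in 4, lay between the compounds in 21, overlapped both in 2 and lay outside both in 4. These places were counted for called genes only, without a share over all genes, and were not tested. The 4 genes in which DMSO overlapped TH10785 alone, so that PNKP1i was the group apart, were SEMA3G, H2BC4, MANF and MYLK. MANF, a protein of the endoplasmic reticulum that is secreted under stress, was at 64.1, 70.4 and 69.2 CPM with TH10785, 69.8, 66.1 and 58.7 CPM with DMSO and 37.9, 41.2 and 41.3 CPM with PNKP1i. Its difference between the compounds was 0.76 (adjusted p = 0.0114).

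In the 21 genes with DMSO in the middle, the compounds lay on opposite sides of the control. BMP4, a bone morphogenetic protein, was at 199, 222 and 221 CPM with TH10785, 163, 145 and 134 CPM with DMSO and 109.6, 91.2 and 103 CPM with PNKP1i. The groups did not overlap, and the difference between the compounds was 1.08 (0.82 to 1.34, adjusted p = 0.00216). ZBED2, a zinc finger protein, had the largest difference of all called genes, 3.98 (3.17 to 4.79). It was low throughout, at 2.39, 3.67 and 2.92 CPM with TH10785, 1.08, 0.576 and 0.400 CPM with DMSO and 0.161, 0.154 and 0.234 CPM with PNKP1i. BMP6, a relative of BMP4, lay the other way at −1.15 and was not called (adjusted p = 0.0890).

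On the PNKP1i side the called genes included NRF2 targets. Of 36 genes of that list, all tested, 8 were called higher with PNKP1i and none with TH10785: AKR1C1, AKR1C2, AKR1C3, TRIM16, TRIM16L, OSGIN1, NQO1 and FTH1. The list median was −0.415. At an unadjusted p under 0.05, 25 were higher with PNKP1i and 1, TXN, was higher with TH10785. Without TH10785 replicate 3 the calls were 24 higher with PNKP1i and 3 with TH10785, and with GC and length offsets 18 and none. Without TH10785 replicate 1 there were 6, and without TH10785 replicate 2 or any single PNKP1i library there was 1, AKR1C1.

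AKR1C1 (ENSG00000187134, chromosome 10 from 4963253 to 4983283) encodes an aldo-keto reductase that reduces steroids and lipid aldehydes. It was at 3.45, 4.66 and 2.60 CPM with TH10785, 6.98, 7.02 and 4.80 CPM with DMSO and 15.5, 15.6 and 14.02 CPM with PNKP1i. DMSO lay between the compounds with no overlap. The difference was −2.07 (−2.56 to −1.57, adjusted p = 0.00216), so the level was 4.19-fold higher with PNKP1i. AKR1C2 and AKR1C3, called at −1.94 and −1.25, are close copies of AKR1C1, so the split of reads among the 3 is uncertain.

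NQO1, the quinone reductase most used as an NRF2 readout, was at 188, 200 and 217 CPM with TH10785, 210.1, 181 and 145 CPM with DMSO and 335, 339.7 and 345 CPM with PNKP1i. The TH10785 libraries fell within the DMSO range apart from replicate 3, and the PNKP1i libraries lay above both groups. The difference was −0.75 (−0.998 to −0.511, adjusted p = 0.0125). The highest adjusted p for NQO1 with 1 library left out was 0.128, without PNKP1i replicate 3.

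OSGIN1, a growth inhibitor induced by oxidants, was called at −0.92, with 35.1, 34.5 and 49.3 CPM against 75.7, 68.3 and 80.4 CPM. TRIM16 and its near-copy TRIM16L, ubiquitin ligase family members, were called at −0.91 and −1.02, and their reads too may be split between them. FTH1, the ferritin heavy chain that stores iron, was at 1010, 1058 and 1335 CPM with TH10785, 1066, 1211 and 1293 CPM with DMSO and 1919, 1850.0 and 1928 CPM with PNKP1i (−0.74, adjusted p = 0.0417). FTL, the ferritin light chain, was at 1908, 2011 and 2705 CPM against 3510, 3263 and 3710 CPM and was not called (−0.66, adjusted p = 0.114). Both ferritin genes have processed pseudogenes, and the sources used here do not say how their reads were assigned.

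Of the 36 NRF2 targets, called or not, 28 had a negative difference and 8 a positive one. The members described next did not pass the threshold. SLC7A11, the cystine importer, was at 21.4, 20.1 and 11.8 CPM with TH10785 and 27.9, 25.4 and 30.3 CPM with PNKP1i (−0.65, adjusted p = 0.322). HMOX1, haem oxygenase 1, was at 54.3, 54.2 and 77.1 CPM against 82.1, 71.6 and 82.8 CPM, and 39.5, 41.8 and 39.0 CPM with DMSO (−0.35, interval −0.68 to −0.02, adjusted p = 0.545). For HMOX1 both compounds lay above DMSO, and TH10785 replicate 3 overlapped the PNKP1i range. TXN, thioredoxin, was at 148, 146 and 129 CPM with TH10785 and 107, 120.2 and 112 CPM with PNKP1i (0.32, adjusted p = 0.391).

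**Figure D4:**
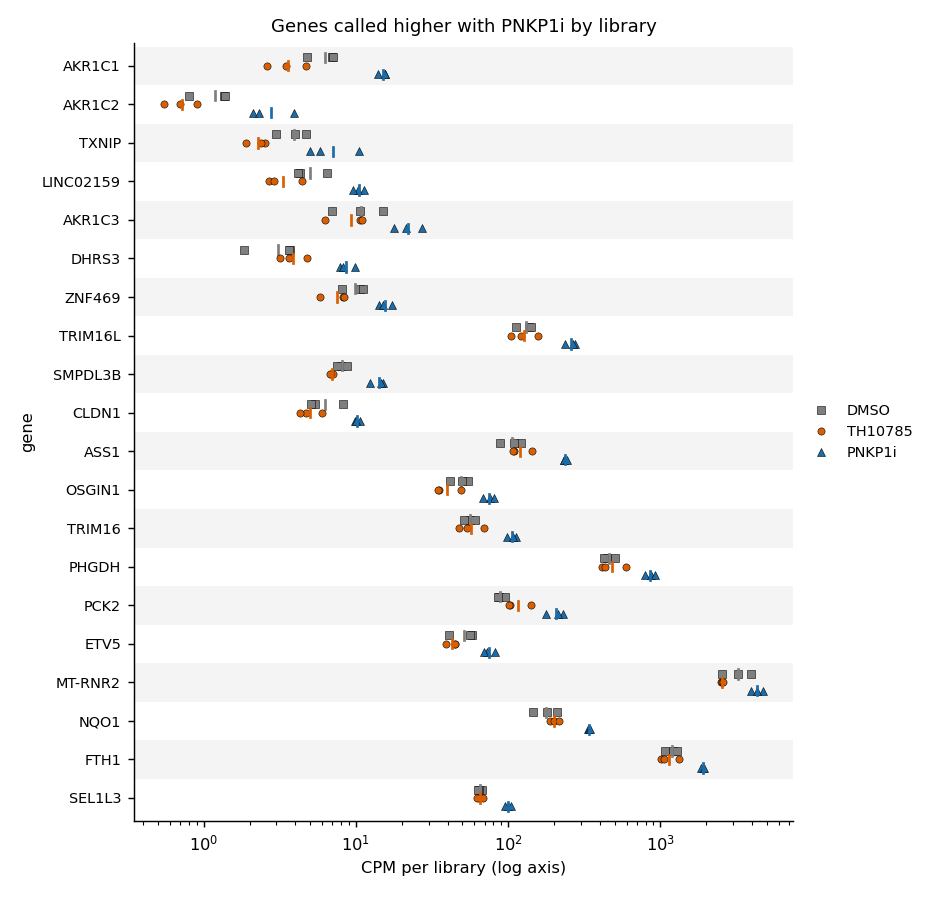
CPM in each library (log x axis) of the 20 genes called higher with PNKP1i, with DMSO as grey squares, TH10785 as orange circles, PNKP1i as blue triangles and short bars at the group means. In 16 of the 20 the DMSO range overlaps only that of TH10785, and in AKR1C1, TXNIP and SMPDL3B it lies between the compounds.

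A few genes of amino acid synthesis were also higher with PNKP1i. Of 23 genes of amino acid and one-carbon synthesis, all tested, 3 were called higher with PNKP1i and none with TH10785, and the median was −0.268. PHGDH, the first enzyme of serine synthesis, was at 412, 432 and 594 CPM with TH10785, 449, 503 and 424 CPM with DMSO and 872, 797 and 916 CPM with PNKP1i. Its difference was −0.84 (−1.19 to −0.50, adjusted p = 0.0404). ASS1, argininosuccinate synthase, was at 109.4, 108 and 144 CPM against 232, 233 and 245 CPM, with DMSO at 122, 108 and 87.9 CPM (−0.98, adjusted p = 0.00845). For both genes TH10785 overlapped DMSO and PNKP1i lay apart above them.

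PCK2, the mitochondrial phosphoenolpyruvate carboxykinase, was called at −0.84, with 102.1, 101.8 and 142 CPM with TH10785, 228, 177 and 214 CPM with PNKP1i and 86.6, 94.7 and 85.8 CPM with DMSO. All 6 treated libraries lay above DMSO. ASNS, asparagine synthetase, was at 5.49, 4.22 and 5.31 CPM against 12.02, 8.63 and 10.1 CPM and lay just outside the threshold (−1.04, adjusted p = 0.0548). PSAT1, the second enzyme of serine synthesis, was at 113, 114 and 97.4 CPM against 169, 142 and 161 CPM (−0.54, adjusted p = 0.0897). At an unadjusted p under 0.05, 10 members were higher with PNKP1i and none with TH10785. Without TH10785 replicate 3, 14 were called higher with PNKP1i and 1 with TH10785, and with GC and length offsets 7 and none. Without TH10785 replicate 1 only 1 was called, and without TH10785 replicate 2 or any single PNKP1i library none was.

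The ATF4 axis itself, 26 transcription factors and stress effectors, had no call by edgeR. It had 9 members higher with PNKP1i and 1 higher with TH10785 at an unadjusted p under 0.05, 4 calls by DESeq2, none by limma-voom and a median of −0.270. FGF21, a hormone induced by the stress response, was at 3.27, 4.37 and 6.17 CPM with TH10785, 12.4, 8.48 and 12.7 CPM with PNKP1i and 3.75, 3.86 and 4.20 CPM with DMSO (−1.28, adjusted p = 0.0626). INHBE, a secreted inhibin subunit, was at 8.70, 6.50 and 8.08 CPM against 14.3, 12.9 and 13.97 CPM (−0.83, adjusted p = 0.0781). DDIT4, an inhibitor of mTORC1, was at 71.1, 61.5 and 78.4 CPM against 105, 94.3 and 104 CPM (−0.52, adjusted p = 0.110). In these 3 genes the compounds did not overlap. ATF4 mRNA was at 654, 653 and 793 CPM against 842, 772 and 917 CPM, and its TH10785 replicate 3 overlapped PNKP1i (−0.27, adjusted p = 0.636). ATF3 lay the other way at 0.45 (adjusted p = 0.384). With TH10785 replicate 3 left out the list had 14 calls higher with PNKP1i and 2 with TH10785, and with GC and length offsets 8 and none.

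The list medians against DMSO show how the compounds differ in each programme. For sterol synthesis the medians were 1.295, 1.253 and 1.315 in the TH10785 libraries and 0.084, −0.003 and 0.020 in the PNKP1i libraries. For NRF2 targets they were 0.004, 0.078 and 0.212 with TH10785 and 0.499, 0.470 and 0.475 with PNKP1i. For amino acid synthesis they were 0.106, 0.194 and 0.449 against 0.683, 0.464 and 0.611. The sterol medians separated the compounds completely, with PNKP1i inside the DMSO range of −0.042 to 0.088. The NRF2 and amino acid medians also did not overlap, and TH10785 replicate 3 was the TH10785 library closest to PNKP1i in both. For the ATF4 axis that library, at 0.505, lay within the PNKP1i range of 0.396 to 0.676.

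**Figure D5:**
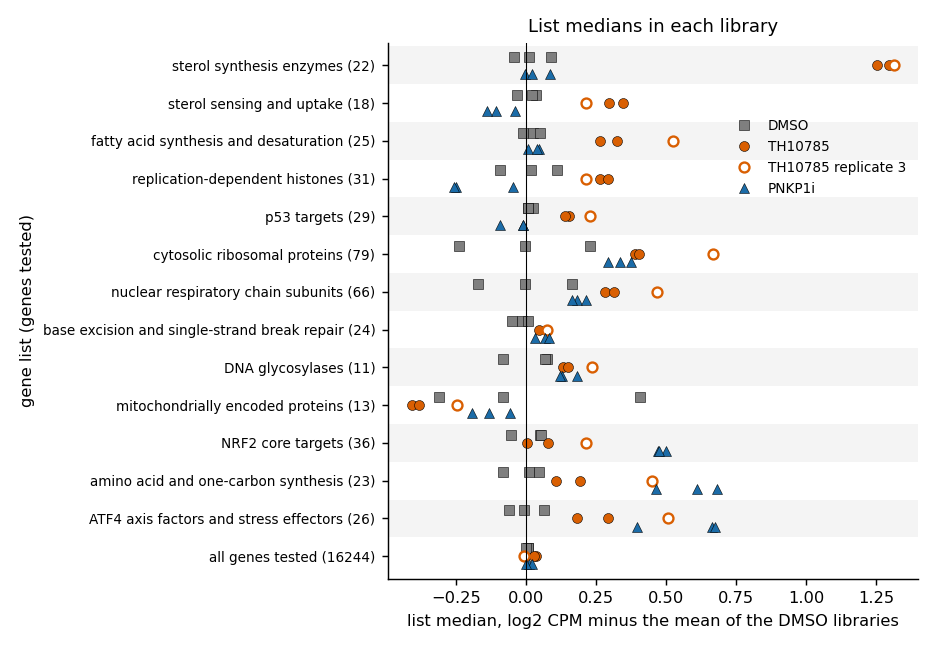
Median over the tested genes of each list of log2 CPM minus the mean of the DMSO libraries (x axis), 1 point per library, with TH10785 replicate 3 as an open circle. Sterol synthesis lies at 1.253 to 1.315 with TH10785 and near 0 with PNKP1i, and NRF2 targets lie at 0.470 to 0.499 with PNKP1i.

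Among the remaining calls higher with PNKP1i, TXNIP, an inhibitor of thioredoxin and glucose uptake, was at 2.51, 1.89 and 2.39 CPM with TH10785, 3.97, 4.72 and 3.001 CPM with DMSO and 5.80, 10.5 and 4.97 CPM with PNKP1i. Its difference was −1.65 (adjusted p = 0.0431), and PNKP1i replicate 2 was the high library of its group. LINC02159, a long noncoding RNA, was called at −1.64, DHRS3, a retinaldehyde reductase, at −1.17, ZNF469 at −1.05, SMPDL3B at −1.02 and CLDN1, a tight junction protein, at −1.02. ETV5, a transcription factor downstream of ERK, was at 39.3, 45.1 and 44.9 CPM against 72.6, 82.0 and 69.3 CPM (−0.79, adjusted p = 0.0139). SEL1L3 was called at −0.62. The adjusted p of TXNIP rose to 0.222 without TH10785 replicate 2, and that of ETV5 to 0.123 without PNKP1i replicate 2.

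The mitochondrial 16S ribosomal RNA, MT-RNR2, was called higher with PNKP1i, at 2500, 2547 and 2570 CPM with TH10785 and 3962, 4749 and 4339 CPM with PNKP1i (−0.78, adjusted p = 0.0216). The DMSO libraries spread from 2553 to 3923 CPM. None of the 13 protein-coding genes of the mitochondrial genome was called by edgeR, DESeq2 or limma-voom, and 7 were higher with PNKP1i at an unadjusted p under 0.05, with a median of −0.274. Mitochondrial genes took 3.88 to 3.92% of counts with TH10785, 4.65 to 5.13% with PNKP1i and 4.24 to 6.79% with DMSO. Leaving out TH10785 replicate 3, 11 of the 13 were called higher with PNKP1i.

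Replication-dependent histone genes were among the lists with a raised median. Of 50 genes, 31 were tested, 2 were called higher with TH10785, H2BC4 at 0.98 and H2BC11 at 0.73, and the median was 0.522. At an unadjusted p under 0.05, 14 were higher with TH10785 and none with PNKP1i. H2BC4 was at 14.5, 16.5 and 12.8 CPM with TH10785, 13.9, 12.7 and 12.1 CPM with DMSO and 6.33, 7.81 and 8.07 CPM with PNKP1i. H2AC6 and H2BC21, at 0.49 and 0.47, lay just outside the threshold (adjusted p = 0.0781 and 0.0968). These genes are near-identical within each class, so the split of reads among them is uncertain. The count was 11 without TH10785 replicate 3, 5 with GC and length offsets, 1 without TH10785 replicate 1, and 0 without TH10785 replicate 2, without any single PNKP1i library and in the 12-library fit.

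The mRNA of OGG1, the enzyme TH10785 is described as activating, was not called. OGG1 (ENSG00000114026, chromosome 3 from 9749944 to 9788219) was at 43.6, 46.6 and 58.9 CPM with TH10785, 53.2, 52.2 and 55.3 CPM with PNKP1i and 52.0, 51.0 and 43.5 CPM with DMSO. The groups overlapped, and the difference was −0.11 with an interval of −0.40 to 0.19 (adjusted p = 0.945). The highest of its group was TH10785 replicate 3, and without it the difference was −0.24 and the gene was called (adjusted p = 0.0459). OGG1 was called in only 1 of the 22 fits. With GC and length offsets and without TH10785 replicate 3, none of 11 DNA glycosylases was called. TH10785 is described as acting on the protein, so this mRNA does not check the labels.

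Repair genes as a whole showed no call. Of 11 DNA glycosylases and of 24 genes for base excision repair and the repair of single-strand breaks, none was called by edgeR, DESeq2 or limma-voom, and none had an unadjusted p under 0.05 in edgeR. The medians were −0.037 and 0.028. The members farthest from 0 were TRPM2, a channel opened by ADP-ribose, at 0.41 (−0.01 to 0.83), and, on the other side, XRCC1, the scaffold of single-strand break repair, at −0.23 (−0.48 to 0.02). When TH10785 replicate 3 was left out, 3 of the 24 were called higher with TH10785 and 5 with PNKP1i. Of the glycosylases OGG1 alone was called. Over all genes that fit called 10.6% higher with TH10785 and 7.88% higher with PNKP1i. With GC and length offsets added to it, no member of either list was called.

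The p53 targets had no call among 29 tested by edgeR, DESeq2 or limma-voom. At an unadjusted p under 0.05, 6 were higher with TH10785 and none with PNKP1i, and the median was 0.215. CDKN1A, the cell cycle inhibitor p21, was at 319, 325 and 442 CPM with TH10785, 276, 227 and 250.4 CPM with PNKP1i and 275, 280.2 and 253 CPM with DMSO (0.53, interval 0.20 to 0.86, adjusted p = 0.238). MDM2, the ligase that limits p53, was at 46.1, 42.2 and 22.9 CPM with TH10785 and 27.3, 28.6 and 24.5 CPM with PNKP1i (0.47, interval −0.03 to 0.96, adjusted p = 0.620). GADD45B was at 58.2, 57.5 and 69.5 CPM against 44.0, 40.8 and 47.7 CPM (0.48, adjusted p = 0.165). The TH10785 libraries lay above the PNKP1i libraries in CDKN1A and GADD45B, and in MDM2 replicate 3 fell below all 3 of them. Without that library 11 members were called higher with TH10785 and 3 with PNKP1i, CDKN1A and MDM2 among the former. Over all genes that fit called 10.6% higher with TH10785 and 7.88% higher with PNKP1i. With GC and length offsets on all 6 libraries 3 members were called, all higher with TH10785. With the offsets and without TH10785 replicate 3 there were 7, again all higher with TH10785.

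Indicators of other responses were not called either. CYP1A1, the cytochrome induced through the aryl hydrocarbon receptor, was at 1.11, 0.595 and 1.27 CPM with TH10785 and 0.966, 0.463 and 1.501 CPM with PNKP1i, with an interval of −1.01 to 1.02 (adjusted p = 0.999). Cytosolic ribosomal protein genes had no call among 79 by edgeR, DESeq2 or limma-voom, with 16 higher with TH10785 at an unadjusted p under 0.05 and a median of 0.147. The median was 0.052 without TH10785 replicate 3, and 15 were then called higher with TH10785 and 4 with PNKP1i. That fit called 10.6% of all genes higher with TH10785 and 7.88% higher with PNKP1i. With GC and length offsets 1 was called, higher with TH10785.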

How the data were processed

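RNA from U2OS cells was sequenced as 150-bp paired-end reads, per the labels' protocols. The authors deposited raw read counts per gene (58735 genes) and the same counts divided by 1 size factor per library, which are normalized signal values (35754 genes), as the file values show. The submitters' processing notes list the build GRCh38 and the tools HTSeq 0.6.1, HISAT2 2.0.5 and DESeq2 1.30.1. The annotation, the strand setting and filters are not given in the sources used here.

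The raw counts of the 6 compared libraries were fitted with edgeR 4.0.16 in R 4.3.3 (TMM scaling, genes filtered at a minimum count of 10 and a total of 15, robust quasi-likelihood F test, Benjamini-Hochberg over 16244 genes, no covariate). The biological coefficient of variation was 16.1%. DMSO CPM values were put on the same scale and stayed out of the fit. Intervals are 95% intervals of the fit. Gene positions, types and GC content come from GENCODE 29, in which all identifiers were found, and promoter windows from RefSeq. Of 1247 entries in 48 gene lists, 1246 matched.

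Named genes were the 10 with the largest difference in each direction among called genes that have a symbol, show no overlap between the groups and reach 1 or more in mean log2 CPM, up to 4 with the smallest p of each list with 3 or more calls, OGG1, CDKN1A, MDM2, HMOX1 and CYP1A1, and exceptions within a list. Some genes that the rule or the lists hold are not reported here. Further called genes, and list members near the threshold, were added after their values were seen. The members, lists and rules were chosen with earlier results of these data known, so lists are described by counts and medians without a test. The 21 alternatives covered scaling, filters, DESeq2 1.42.0, limma 3.58.1 (voom on counts, trend on the deposited normalized signal with 1 added before log2), fits of 9 and 12 libraries, a test against a fold of 1.2, GC and length offsets, a replicate block, non-robust estimation and each library left out. The scripts were tested on simulated data.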

Additional observations from a re-analysis of the deposited data

How the results depend on the processing

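All 109 called genes kept their direction in each of the 21 alternatives that tested them. The counts of genes called, higher with TH10785 and higher with PNKP1i, 109, 89 and 20 as reported, were 239, 161 and 78 with DESeq2, 299, 207 and 92 with no low-count filter, 203, 137 and 66 in the fit of 9 libraries, and 52, 48 and 4 in the test against a fold of 1.2. They were 441, 295 and 146 with GC and length offsets, and 1295, 638 and 657 with those offsets and without TH10785 replicate 3, an alternative chosen after seeing the data. The fit of all 12 libraries called 156, of which 48 were higher with PNKP1i. With 1 library left out, the counts ranged from 25 to 3089, from 24 to 1774 and from 1 to 1315. The called members of the lists, 50 as reported, were 82 with DESeq2, 89 with no filter, 29 against a fold of 1.2, 114 with GC and length offsets, 240 with those and without TH10785 replicate 3, and 19 to 397 with 1 library left out. Of the 31 called genes named by rule, 19 were called against a fold of 1.2 and 13 to 31 with 1 library left out. Several of these fits, the no-filter and left-out-library fits among them, test other numbers of genes. For example, 16690 genes were tested without TH10785 replicate 3, against 16244 in the main fit. The cause of the changes in these counts was not tested. Scaling by RLE or upper quartile, limma-voom, limma-trend, the stricter filter and non-robust estimation gave 91 to 111 calls.

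With the replicate number as a block, 196 genes were called, 138 and 58 by direction, with 73 list members, and with the block and GC and length offsets 452, 298 and 154, with 116 list members. Libraries with the same number had correlations of deviations of −0.153, 0.166 and 0.101, so the numbers were not taken to pair the libraries, and not every library correlated best with its own number.

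The uncalled gene CYP1A1, near 0, changed sign. For gene CYP1A1 the difference was −0.0014 in the fit of 12 libraries, −0.0008 in that of 9, −0.0067 and −0.3284 without PNKP1i replicate 1 and 2, −0.0802 and −0.2225 without TH10785 replicate 1 and 3, 0.4663 without PNKP1i replicate 3, and −0.1179 with GC and length offsets without TH10785 replicate 3.

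The limits are 3 libraries per compound, 1 dose and 1 time, a TH10785 replicate that stands apart, and calls on the PNKP1i side that, AKR1C1 apart, were all lost without TH10785 replicate 2 or without any single PNKP1i library. Precision is low for genes of a few CPM.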

Other observations

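Growth and division genes had no call with all 6 libraries. Of 41 genes of replication and G1/S and 40 of mitosis and G2/M, none was called by edgeR, DESeq2 or limma-voom, with medians of −0.006 and −0.015. At an unadjusted p under 0.05, edgeR had 0 and 1 of the former and 1 and 1 of the latter higher with TH10785 and PNKP1i. Without TH10785 replicate 3 the replication list had 8 calls higher with TH10785 and 6 with PNKP1i, and the mitosis list 13 and 6. Over all genes that fit called 10.6% higher with TH10785 and 7.88% higher with PNKP1i. With GC and length offsets added to it, the replication list had 1 and 1 and the mitosis list 1 and 5. Of 30 genes of double-strand break repair and checkpoints none was called by edgeR, DESeq2 or limma-voom, and none had an unadjusted p under 0.05 in edgeR. Without TH10785 replicate 3, 5 were called higher with TH10785, and 1 was with GC and length offsets added.

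Energy and protein quality genes gave single calls with all 6 libraries. ALDOC was the 1 call among 26 genes of glycolysis and lactate, NEU1, a lysosomal sialidase, was the 1 call among 28 of lysosome and autophagy at 0.81, and MANF was the 1 call among 27 of endoplasmic reticulum folding and degradation. When TH10785 replicate 3 was left out these lists had 3, 2 and 8 calls higher with TH10785 and 1, 8 and 3 higher with PNKP1i. Over all genes that fit called 10.6% higher with TH10785 and 7.88% higher with PNKP1i. With GC and length offsets on all 6 libraries the endoplasmic reticulum list had 5, all higher with TH10785. Nuclear genes of the respiratory chain had no call among 66 by edgeR, DESeq2 or limma-voom, 12 members higher with TH10785 at an unadjusted p under 0.05 in edgeR and a median of 0.143. Of the 66, 14 were called higher with TH10785 and 6 with PNKP1i when TH10785 replicate 3 was left out. The amino acid transporters had no call among 19 by edgeR, 4 members higher with PNKP1i at an unadjusted p under 0.05, 2 calls by DESeq2 and none by limma-voom. With GC and length offsets edgeR called 3 higher with PNKP1i, and without TH10785 replicate 3 it called 3 higher with TH10785 and 6 with PNKP1i. SLC7A3, a carrier of basic amino acids, was at 1.58, 1.29 and 1.65 CPM with TH10785, 1.25, 1.38 and 0.900 CPM with DMSO and 4.99, 3.24 and 3.23 CPM with PNKP1i (−1.34, edgeR adjusted p = 0.0604).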
